A study of Mus musculus with 196 samples.

Results

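The data described here are 16 RNA libraries of mouse clone A11, of 194 matched libraries in the series, which were chosen by name as all DoxRA and control libraries of that clone. A11 is 1 clone of PGCLCs, the culture-derived counterparts of primordial germ cells, the founders of eggs and sperm. Cells of A11 carry a Zglp1 coding sequence under a tetO promoter with IRES-mCherry, an rtTA activator driven by EF1a, and the genotype Stra8-/-. Each of 4 culture days (4, 5, 7 and 9) gave 2 DoxRA libraries and 2 control libraries. DoxRA is the submitters' name for the treatment; Dox is read here as doxycycline, which switches on a tetO promoter through rtTA, and RA as retinoic acid.

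DoxRA libraries at day 9 were also set against those of 2 other genotypes of the series. Clone A2 has the same transgenes with Stra8 intact, and is also a single clone, with 2 DoxRA and 2 control libraries. Clones B6 and F6 are Stra8-/- without the Zglp1 transgene, with 4 libraries given B2RA, read as BMP2 with RA, and 4 control libraries. All these lines share the reporters Prdm1-mVenusTg/0 and Dppa3-ECFPTg/0 and the strain background 129S1:C57BL/6=1:1. All were cultured on m220 feeder cells, which carry membrane-bound SCF, and were sorted as SC(+) cells, which express the Dppa3 reporter. The analysed A11 libraries hold no Dox-only and no RA-only arm, so effects of Dox, transgene and RA cannot be told apart in this clone. The labels do not say whether replicate libraries came from separate cultures, so p-values measure the spread between libraries within groups. That spread was estimated for each gene over all 191 PGCLC libraries in 98 groups, so other lines and treatments enter it.

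Germ cells entering the female programme switch from proliferation to meiotic prophase. Zglp1 encodes a GATA-type zinc finger protein of germ cells, and Stra8 encodes a meiotic gatekeeper that is induced by retinoic acid and acts with Meiosin on meiotic promoters. Bone morphogenetic protein (BMP) and retinoic acid signals are both used to drive PGCLCs toward this fate in culture. Many germline genes are kept silent by promoter DNA methylation in other cells and open as germ cells develop.

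Values are RPM, the reads of a gene scaled to the same total of reads on endogenous genes in every library. A log2 difference is the DoxRA mean minus the control mean of log2(RPM + 1), with its standard error from limma. Testing required 10 RPM or more in 2 or more libraries of the comparison. A call needed an adjusted p under 0.05 and a difference of 1 or more in size. "Rose" and "fell" are used only of called genes. Where groups are said to be separate or not to overlap, this describes the values of 2 libraries each. The share of all tested genes so separated was not counted.

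The A11 libraries held 1821398 to 4578117 reads, and 1 read was worth 0.218 to 0.549 RPM. Germ cell markers were present in all of them. Among the controls of day 9, Dppa3 stood at 1061 and 1205 RPM, Prdm1 at 101 and 91.1 RPM and Ddx4 at 68.0 and 78.5 RPM. None of the 12 gonadal soma markers reached the testing minimum at day 9, and Nanos2, a male germ cell gene, had no read there. The DoxRA replicate 1 of day 5 stood apart, with a correlation of 0.895 to its replicate where other pairs lay at 0.952 to 0.983. Ribosomal protein genes took 10.7% of its reads, against 17.7% to 24.8% in the other A11 libraries. Day 5 counts of calls are therefore given with and without that library, and so are the day 5 calls of most named genes. Counts of calls shared between days include it.

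The transgene was read through its own sequences. The mCherry row read 5863 and 3819 RPM in DoxRA libraries of day 9, against 180 and 173 RPM in controls. The rtTA row read 3126 and 2337 RPM in DoxRA libraries, against 15810 and 9745 RPM in controls. Reads of 3' ends from the transgene would fall outside the Zglp1 coding sequence, so the Zglp1 row does not measure the transgene. That row (gene ID 100009600, chr9:21062393-21067093 in RefSeq positions on GRCm38.p6) read 14.8 and 11.1 RPM in DoxRA libraries of day 9, against 5.17 and 6.04 RPM in controls. The difference of 1.07 ± 0.50 (SE) did not pass (adjusted p = 0.092), although the groups did not overlap; at day 5 Zglp1 was called, at 2.11 ± 0.50 (adjusted p = 0.002). That call stood without DoxRA replicate 1 and was lost without control replicate 1. With TMM factors, which rescale libraries to a common centre, Zglp1 did not reach the testing minimum at day 5.

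Reads of Stra8 (gene ID 20899, chr6:34920163-34939344) were abundant in this Stra8-/- clone. DoxRA libraries held 23.1 and 31.9 RPM at day 4, 100 and 76.0 at day 5, 212 and 222 at day 7 and 378 and 352 at day 9. Controls held 3.58 and 0.455 RPM at day 4, 7.13 and 3.29 at day 5, 11.7 and 12.1 at day 7 and 24.1 and 20.3 at day 9. At every day both DoxRA libraries lay above both controls. Stra8 rose at each day, by 3.45 ± 0.69 at day 4 and 3.98 ± 0.69 at day 9 (adjusted p = 0.0016 and 3.6e-06). The day 4 call was lost without control replicate 2 (adjusted p = 0.12) and without DoxRA replicate 2 (adjusted p = 0.085). Which part of Stra8 was removed is not stated in the sources used here, and a 3' tag outside it does not test the knockout.

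Many genes that answer to retinoic acid rose by day 9, and Cyp26a1 did so from day 4, as the only 1 of 8 tested list members. At day 9, genes called higher were 13.5% and genes called lower 6.54% of the 9663 tested. Of the 19 genes of the retinoid list 13 were tested, 8 rose and none fell, with a median log2 difference of 1.49 against 0.21 over all genes tested; with TMM factors, which rescale libraries to a common centre, 7 rose and 1 fell. In 5 of the 13 the minimum was reached only in DoxRA libraries, so these had to differ to be tested. In bulk RNA, more cells that express a gene and more RNA per cell cannot be told apart, here and below.

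Cyp26a1, the enzyme that degrades retinoic acid, was the most responsive of the list. It read 46.2 and 72.6 RPM in DoxRA libraries of day 9, against 1.72 and 2.75 RPM in controls, a difference of 4.21 ± 0.63 (adjusted p = 6.4e-08). Cyp26a1 was already called at day 4, at 3.8 ± 0.63, with 29.9 and 19.4 RPM against 2.23 and 0. The groups stayed apart at all 4 days. Rarb, a retinoic acid receptor whose gene is itself a target of the receptor, read 22.9 and 28.1 RPM in DoxRA libraries of day 9, against 1.72 and 2.20 RPM in controls (3.16 ± 0.64, adjusted p = 6.2e-05). Dhrs3, which turns retinal back to retinol, rose by 3.56 ± 0.64. Stra6, the membrane receptor for retinol-binding protein, rose by 3.10 ± 0.60. Crabp2, which carries retinoic acid to the nucleus, read 74.3 and 50.8 RPM with DoxRA, against 40.9 and 36.8 RPM (0.65 ± 0.50, adjusted p = 0.33) and was not called at day 9.

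The promoters of Cyp26a1 and Rarb are shown because they hold the DR5 motif, the direct repeat with a spacer of 5 bases that retinoic acid receptors bind. Both are RefSeq windows on GRCm38.p6, cut to the 200 bases before the start site and printed 5′ to 3′ on the strand of the gene (Cyp26a1 at chr19:37697608-37697807, plus strand; Rarb at chr14:16575477-16575676, minus strand). Capitals mark the DR5 match.
Cyp26a1: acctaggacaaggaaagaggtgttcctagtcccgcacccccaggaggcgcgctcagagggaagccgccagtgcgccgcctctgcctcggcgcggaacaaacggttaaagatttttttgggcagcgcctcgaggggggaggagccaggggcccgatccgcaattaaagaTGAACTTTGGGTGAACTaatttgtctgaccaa
Rarb: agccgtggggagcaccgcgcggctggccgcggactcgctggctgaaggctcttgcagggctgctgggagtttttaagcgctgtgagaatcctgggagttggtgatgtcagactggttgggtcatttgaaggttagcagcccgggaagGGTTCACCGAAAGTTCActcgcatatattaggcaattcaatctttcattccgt
Both strands were searched in windows of 300 bases, from 250 before to 50 after the start site. DR5 was found in 2 of the 13 retinoid genes with a window (15.4%) and in 31 of all 27025 genes with one (0.115%). No DR2 or DR1 repeat was found in the windows of the 13 genes, and the DR5 matches overlapped no other motif searched. A match is a description of letters, not of binding.

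Meiotic genes rose in most tested cases at day 9. Across 7 lists with 55 members, 53 were in the table, 48 were tested, 40 rose, 8 did not pass and none fell, with a median difference of 2.63. Of the 48, 22 reached the testing minimum only in DoxRA libraries, so these had to differ to be tested. The lists by role are taken in turn, and the plot of list members at day 9 shows each of them.

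**Figure D1:**
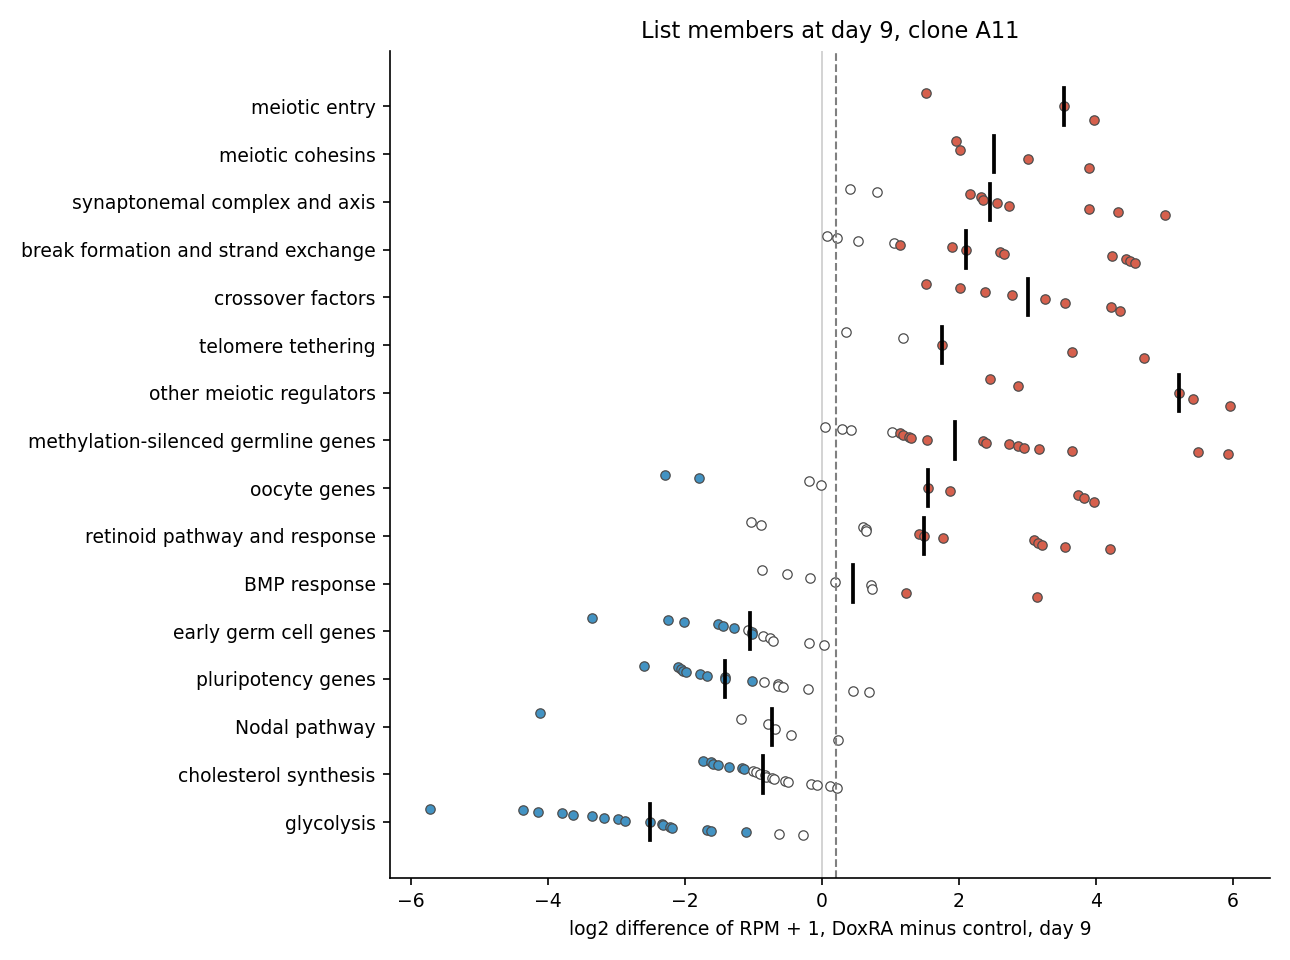
Log2 differences of RPM + 1 at day 9 in clone A11 (x axis, DoxRA minus control) for the tested members of 16 gene lists (rows). Red points were called higher, blue points lower and open points were not called; black ticks are list medians and the dashed line is the median over all genes tested, 0.21. The medians of the meiotic rows lie right of that line and the glycolysis median lies left of it, at -2.51.

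Of the entry genes, Stra8, Meioc and Ythdc2 rose. Meioc, an RNA-binding partner that keeps cells in prophase, read 118 and 81.8 RPM in DoxRA libraries of day 9, against 6.89 and 8.23 RPM in controls (3.54 ± 0.65, adjusted p = 1.0e-05). Ythdc2, the RNA helicase that Meioc works with, read 59.0 and 42.1 RPM, against 19.4 and 14.3 RPM in controls (1.53 ± 0.45, adjusted p = 0.0056). Neither gene overlapped between groups, though the call of Ythdc2 was lost without DoxRA replicate 1 or control replicate 2. Meiosin, the partner of Stra8, stayed below the testing minimum, at 4.76 and 7.26 RPM with DoxRA, against 0 and 0.549 RPM.

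All 4 meiotic cohesin genes rose. Rec8, the meiotic kleisin that holds sister chromatids together, read 637 and 652 RPM in DoxRA libraries of day 9, against 78.8 and 78.0 RPM in controls, a difference of 3.02 ± 0.43 (adjusted p = 2.1e-08). Rad21l, a second meiotic kleisin, had 13.8 and 14.0 RPM with DoxRA and no read in either control, so it was at least 19.2-fold higher against a floor of 3 reads over the control group. Smc1b, the meiotic core subunit, read 754 and 576 RPM, against 169 and 154 RPM (2.02 ± 0.35), and Stag3, the meiotic accessory subunit, rose by 1.96 ± 0.31. Among these genes the DoxRA and control libraries did not overlap.

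In the synaptonemal complex and chromosome axis, which pair homologous chromosomes, 8 of 10 genes rose. Sycp1, the transverse filament, read 245 and 149 RPM in DoxRA libraries of day 9, against 9.47 and 7.69 RPM in controls (4.33 ± 0.65, adjusted p = 9.8e-08). Sycp2 of the axis read 365 and 227 RPM, against 7.75 and 8.23 RPM (5.01 ± 0.58), and Sycp3, its axis partner, 490 and 421 RPM, against 71.0 and 81.8 RPM (2.56 ± 0.51). These DoxRA libraries lay far above both controls. Tex12, of the central element, rose by 3.91 ± 0.54 and Hormad1, which recruits the break machinery to the axis, by 2.16 ± 0.49. The remaining members were Syce2, at 396 and 389 RPM against 270 and 318 RPM (0.42 ± 0.21, adjusted p = 0.12), and Hormad2, at 0.81 ± 0.35 (adjusted p = 0.064).

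Break formation and strand exchange had 13 tested members of 16, of which 9 rose. Prdm9, the methyltransferase that places meiotic breaks, read 34.3 and 39.2 RPM in DoxRA libraries of day 9, against 1.72 and 0 RPM in controls (4.51 ± 0.59, adjusted p = 1.2e-09). Spo11, the enzyme that cuts, read 55.2 and 55.7 RPM, against 10.3 and 14.3 RPM (2.1 ± 0.61, adjusted p = 0.0054), and Dmc1, the meiotic recombinase, 111 and 104 RPM, against 25.8 and 30.2 RPM (1.91 ± 0.45). These genes stood clear of their controls, and the call of Spo11 was lost without control replicate 1. Mei1, needed for break formation, rose by 4.24 ± 0.48, while Mnd1, a cofactor of Dmc1, read 147 and 142 RPM against 130 and 146 RPM (0.07 ± 0.22, adjusted p = 0.84), with overlapping groups.

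Crossover factors were tested in 8 of 9 cases and all 8 rose. The minimum was reached only in DoxRA libraries by 5 of these 8, and by 4 of the 5 tested telomere tethering genes. Those genes had to differ to be tested. Rnf212, a ligase that marks crossover sites, read 81.4 and 59.1 RPM in DoxRA libraries, against 1.72 and 3.29 RPM in controls (4.36 ± 0.56, adjusted p = 6.6e-10). Hfm1, a crossover helicase, read 108 and 86.7 RPM, against 6.89 and 12.1 RPM (3.26 ± 0.51), and Msh4, of the MutS pair that stabilises crossovers, 25.7 and 18.4 RPM, against 0.431 and 1.65 RPM (3.55 ± 0.46). Telomere tethering genes rose in 3 of 5 tested cases, led by Majin, an inner nuclear membrane anchor, at 96.2 and 82.3 RPM against 2.15 and 2.75 RPM (4.71 ± 0.57). The groups were separate for Rnf212, Hfm1, Msh4 and Majin.

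Of other meiotic regulators all 5 tested members rose. All 5 reached the minimum only in DoxRA libraries, so they had to differ to be tested. Zfp541, a chromatin factor of meiotic prophase, read 133 and 102 RPM in DoxRA libraries of day 9, against 1.29 and 0.549 RPM in controls, a difference of 5.96 ± 0.52 (adjusted p = 1.1e-16). Ccnb3, a meiotic cyclin, read 51.0 and 34.4 RPM and had no read in either control, so it was at least 58.9-fold higher against the floor. Adad1, a germ cell protein of the adenosine deaminase family, rose by 5.22 ± 0.50 and Rbm46, an RNA-binding protein of meiotic cells, by 2.87 ± 0.55. Kctd19, which works with Zfp541 in spermatocytes, stayed at 0.952 and 0 RPM with DoxRA, against 0 and 0.549 RPM.

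Germline genes that promoter methylation keeps silent rose in 14 of 18 tested cases and fell in none (median difference 1.95). Of the 18, 2 reached the minimum only in DoxRA libraries, so these had to differ to be tested. Tex101, a germ cell surface protein, read 953 and 768 RPM in DoxRA libraries of day 9, against 14.6 and 11.5 RPM in controls, a difference of 5.94 ± 0.58 (adjusted p = 1.4e-14). Taf7l, a germ cell form of a general transcription factor subunit, read 502 and 357 RPM, against 10.8 and 6.59 RPM (5.49 ± 0.59, adjusted p = 6.0e-13). Tdrd9, a helicase of the piRNA pathway, read 72.4 and 26.6 RPM, against 3.01 and 2.20 RPM (3.65 ± 0.50). The DoxRA libraries of Tdrd9 differed from each other by more than those of the other genes, but both lay above the controls.

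Slc25a31, a germline nucleotide carrier of mitochondria, rose by 2.95 ± 0.44, Mael, of the piRNA pathway, by 2.40 ± 0.36 and Ddx4, the germline RNA helicase, by 2.35 ± 0.32. Ddx4 read 436 and 328 RPM in DoxRA libraries, against 68.0 and 78.5 RPM in controls. Dazl, the germline RNA-binding protein that licenses gametogenesis, read 1270 and 990 RPM, against 538 and 566 RPM (1.02 ± 0.49, adjusted p = 0.099), and did not pass although its groups were separate. Brdt, a testis bromodomain protein, read 45.7 and 38.2 RPM, against 31.9 and 29.6 RPM (0.43 ± 0.44, adjusted p = 0.48).

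Promoters of 4 genes are shown because the E-box CACGTG, a site bound by MGA with MAX and by other basic helix-loop-helix proteins, was most frequent in 2 lists. They were chosen as the largest rises among list members that hold it, 2 from the methylation-silenced list and 2 from the synaptonemal list. The windows are RefSeq sequence on GRCm38.p6, the 200 bases before the start site, 5′ to 3′ on the strand of the gene (Taf7l at chrX:134476491-134476690, minus strand; Tdrd9 at chr12:111971359-111971558, plus strand; Sycp1 at chr3:102936101-102936300, minus strand; Tex12 at chr9:50561269-50561468, minus strand). Capitals mark CACGTG.
Taf7l: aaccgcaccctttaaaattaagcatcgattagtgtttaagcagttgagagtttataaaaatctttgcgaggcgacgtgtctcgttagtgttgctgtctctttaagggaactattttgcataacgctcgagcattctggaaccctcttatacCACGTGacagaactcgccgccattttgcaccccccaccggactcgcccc
Tdrd9: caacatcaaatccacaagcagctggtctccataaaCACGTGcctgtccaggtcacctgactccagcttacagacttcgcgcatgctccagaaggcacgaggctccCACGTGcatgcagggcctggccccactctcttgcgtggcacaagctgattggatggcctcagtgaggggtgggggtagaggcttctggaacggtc
Sycp1: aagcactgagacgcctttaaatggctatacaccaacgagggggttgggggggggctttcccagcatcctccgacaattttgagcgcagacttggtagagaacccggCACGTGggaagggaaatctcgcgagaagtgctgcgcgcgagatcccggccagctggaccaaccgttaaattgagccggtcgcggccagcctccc
Tex12: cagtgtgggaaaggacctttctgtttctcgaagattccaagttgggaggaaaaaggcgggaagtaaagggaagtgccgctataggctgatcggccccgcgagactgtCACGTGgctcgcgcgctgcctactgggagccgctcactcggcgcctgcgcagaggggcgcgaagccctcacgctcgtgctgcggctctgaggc
CACGTG reads the same on both strands, and in these windows it overlapped no other motif searched. In windows of 300 bases it was found in 10 of 15 methylation-silenced genes (66.7%) and 6 of 10 synaptonemal genes (60.0%), against 2187 of all 27025 genes (8.09%). The methylation-silenced genes without it include Tex101. GATAA, the letters that GATA-type zinc fingers bind, was found in 2 of the 15 (13.3%) and 1 of the 10 (10%), against 7682 of all genes (28.4%). CACGTG also exceeded its share of all genes in lists of other roles, such as p53 genes (5 of 13, 38.5%) and cholesterol synthesis (4 of 14, 28.6%). It was found in 0 of 16 DNA replication genes and 0 of 16 G2 and M phase genes.

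Oocyte genes split. Of 20 listed, 9 were tested, 5 rose and 2 fell. Figla, a basic helix-loop-helix factor of primordial follicles, read 58.1 and 26.6 RPM in DoxRA libraries of day 9, against 2.15 and 1.1 RPM in controls (3.97 ± 0.51, adjusted p = 8.7e-10). Nobox, an oocyte homeobox factor, read 22.9 and 11.1 RPM, against 0.431 and 0 RPM (3.83 ± 0.43), and Sohlh1, which acts upstream of both, 30.5 and 19.4 RPM, against 1.29 and 0.549 RPM (3.75 ± 0.42). These 3 transcription factors were close to absent from controls and present in both DoxRA libraries. They reached the minimum only with DoxRA, so they too had to differ to be tested. Another of the 9 tested reached it only in controls. Ybx2, which stores RNA in oocytes, rose by 1.87 ± 0.36 and Taf4b by 1.55 ± 0.27.

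Ooep, a structural member of the subcortical maternal complex, fell, with 52.4 and 54.7 RPM in DoxRA libraries against 181 and 197 RPM in controls (-1.80 ± 0.30, adjusted p = 1.4e-06), and Khdc3, another member, also fell. Tle6 of the same complex read 33.8 and 28.6 RPM, against 32.3 and 38.4 RPM (-0.18 ± 0.30, adjusted p = 0.70). The 11 untested members included the zona pellucida genes Zp1, Zp2 and Zp3 and the growth factors Gdf9 and Bmp15.

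Early germ cell genes fell or did not pass. All 14 were tested, 8 fell and none rose, with a median of -1.05 against 0.21 over all genes. Of the 14, 2 reached the minimum only in control libraries, so these had to differ to be tested. Dppa3, whose reporter was used for the sort, read 430 and 502 RPM in DoxRA libraries of day 9, against 1061 and 1205 RPM in controls (-1.28 ± 0.36, adjusted p = 0.0044). Tfap2c, a transcription factor of PGC specification, read 16.7 and 27.1 RPM, against 61.1 and 63.7 RPM (-1.51 ± 0.44, adjusted p = 0.0057). Dnd1, an RNA-binding protein of PGC survival, read 15.2 and 24.2 RPM, against 77.1 and 84.5 RPM (-2.01 ± 0.49). DoxRA libraries lay below controls for all of these. Ifitm3, an early PGC surface marker, fell by 1.44 ± 0.44 and Rhox9, an X-linked homeobox gene, by 1.02 ± 0.36. Each of these calls except that of Dnd1 was lost without DoxRA replicate 1, those of Dppa3 and Ifitm3 also without control replicate 2, and that of Rhox9 without any 1 of the 4 libraries. Prdm1, the other specification factor with a reporter, read 64.3 and 52.8 RPM, against 101 and 91.1 RPM (-0.71 ± 0.38, adjusted p = 0.15), and Kit, the SCF receptor, stayed within its spread (-0.18 ± 0.54).

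Of 17 tested pluripotency genes, 10 fell and none rose (median -1.42). Pou5f1 read 59.0 and 55.2 RPM in DoxRA libraries of day 9, against 218 and 240 RPM in controls (-1.98 ± 0.46, adjusted p = 0.00042), Nanog 27.6 and 49.4 RPM, against 146 and 170 RPM (-2.06 ± 0.47), and Sox2 61.4 and 40.2 RPM, against 185 and 162 RPM (-1.78 ± 0.40). All 3 core factors remained well above 0 with DoxRA. Klf2 fell by 2.59 ± 0.44 and Esrrb by 1.42 ± 0.29. In the Nodal pathway 1 of 6 tested genes fell. It was Tdgf1, the Nodal co-receptor, at 0.476 and 8.23 RPM against 54.7 and 73.0 RPM (-4.12 ± 0.64). Tdgf1 reached the minimum only in control libraries, so it had to differ to be tested. Lefty1, a Nodal inhibitor, read 200 and 161 RPM, against 229 and 266 RPM (-0.45 ± 0.62, adjusted p = 0.61).

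Glycolysis fell almost throughout: 17 of 19 tested genes fell and none rose (median -2.51). Of the 19, 4 reached the minimum only in control libraries, so these had to differ to be tested. Pfkl, the liver form of phosphofructokinase, read 0.952 and 0.968 RPM in DoxRA libraries of day 9, against 91.3 and 114 RPM in controls (-5.72 ± 0.62, adjusted p = 1.8e-12). Ldha, which makes lactate, read 18.6 and 23.7 RPM, against 416 and 491 RPM (-4.36 ± 0.77, adjusted p = 4.4e-06). Tpi1, the triose phosphate isomerase, read 11.4 and 28.1 RPM, against 309 and 365 RPM (-4.15 ± 0.51).

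For Ldha, the controls changed more over the days than the DoxRA libraries. Ldha in DoxRA libraries read 14.7 and 6.93 RPM at day 4 and 22.4 and 11.5 RPM at day 7. In controls it read 15.7 and 11.4 RPM at day 4 and 77.3 and 44.7 RPM at day 7. The day 9 difference of Ldha thus sits on a control level above that of the earlier days, while DoxRA libraries kept within 6.93 to 23.7 RPM. Slc2a3, a glucose transporter, fell in another way, with 337 and 451 RPM in DoxRA libraries of day 4 and 128 and 127 RPM at day 9, against 410 and 368 RPM and 655 and 635 RPM in controls. Pfkl in DoxRA libraries read 5.29 and 1.39 RPM at day 4, against 11.6 and 10.9 RPM in controls. Pfkp, the platelet form, read 93.3 and 124 RPM at day 9, against 178 and 157 RPM (-0.63 ± 0.35, adjusted p = 0.17), and was 1 of the 2 members that did not pass.

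**Figure D2:**
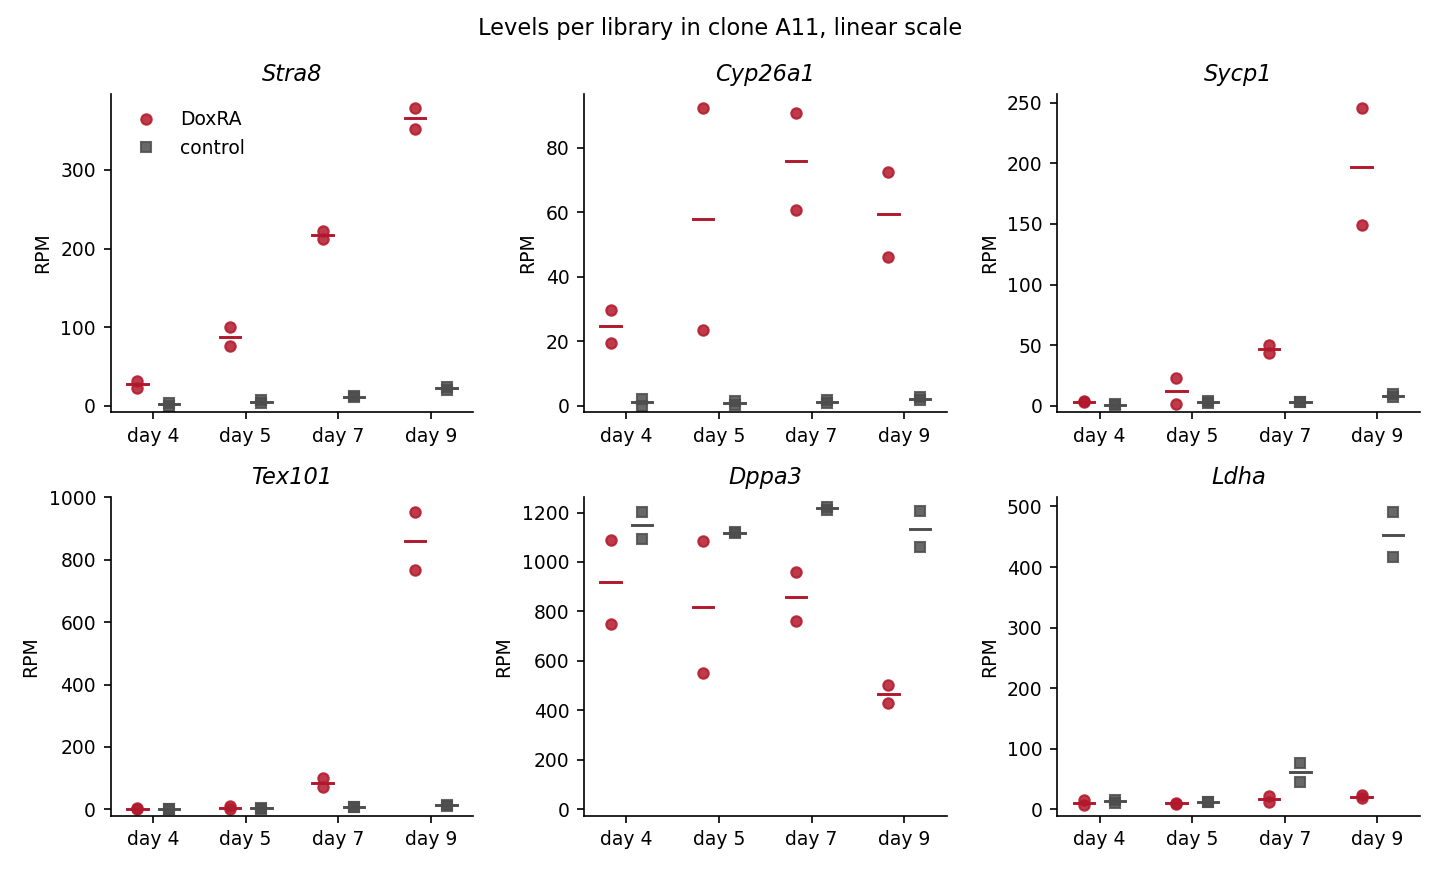
RPM (y axis, linear) of 6 genes in each library of clone A11 by culture day (x axis), DoxRA as red circles left of control as grey squares; short bars are means of 2 libraries. Stra8 and Cyp26a1 are separate from day 4, Sycp1 and Tex101 from day 7, and Dppa3 is below its controls at day 9. Ldha is below its controls at days 7 and 9, where the controls lie above those of day 4.

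Cholesterol synthesis genes fell in 7 of 20 tested cases and rose in none (median -0.86). Cyp51, a demethylase of the pathway, fell by 1.51 ± 0.33 and Hmgcs1, an early enzyme, by 1.35 ± 0.38, the last lost without DoxRA replicate 2 or control replicate 1. With TMM factors 12 of the 20 fell. DNA replication genes had 1 rise and 1 fall among 20, or 1 rise and 6 falls with TMM factors. Ccne2, a cyclin of S phase entry, rose, with 73.3 and 76.5 RPM in DoxRA libraries against 17.6 and 18.7 RPM in controls (1.99 ± 0.57, adjusted p = 0.0045), and Mcm7, a helicase subunit, fell by 1.04 ± 0.20, a call lost without DoxRA replicate 1. Among G2 and M phase genes 2 of 20 fell, Aurkb and Ccnb1. In the p53 list 5 of 15 fell, including Perp (-1.48 ± 0.54, lost without any 1 of the 4 libraries), while Cdkn1a, the cell cycle inhibitor, read 46.2 and 71.2 RPM, against 87.4 and 116 RPM (-0.80 ± 0.36, adjusted p = 0.078). Of the 15 p53 genes, 2 reached the minimum only in control libraries. The stress response list had 1 fall, of Ddit4, among 11.

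Of 7 tested DNA methylation enzymes 5 did not pass, Dnmt3a, a de novo methyltransferase, rose by 1.12 ± 0.39 and Tet1, which oxidises methylcytosine, fell by 1.82 ± 0.52. The call of Dnmt3a was lost with TMM factors, with edgeR and without 3 of the 4 libraries (all but DoxRA replicate 2), and that of Tet1 without DoxRA replicate 2. Of 12 tested members of PRC1.6 and the H3K9 repressors, which silence germline genes, Setdb1 rose by 1.21 ± 0.27 and the others did not pass; its call was lost with TMM factors, with edgeR and without control replicate 2. Male prospermatogonia genes gave 2 falls among 3 tested. Dnmt3l, a cofactor of de novo methylation, read 18.6 and 16.5 RPM in DoxRA libraries, against 87.8 and 139 RPM in controls (-2.59 ± 0.78), and Morc1, a repressor of transposons, 27.6 and 18.9 RPM, against 57.7 and 65.9 RPM (-1.39 ± 0.37). The calls were lost without control replicate 2 for Dnmt3l and without DoxRA replicate 2 for Morc1.

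BMP response genes were tested in 8 of 12 cases and 2 rose. Id1, the inhibitor of differentiation that BMP induces directly, read 154 and 237 RPM in DoxRA libraries of day 9, against 16.8 and 25.3 RPM in controls (3.15 ± 0.57, adjusted p = 7.9e-06). At day 4 Id1 had read 3.40 and 5.09 RPM with DoxRA, against 3.58 and 5.00 RPM. Smad6, an inhibitory Smad, rose by 1.23 ± 0.47 (adjusted p = 0.035), and Id2, at 55.7 and 53.7 RPM against 32.3 and 33.5 RPM, did not pass (0.72 ± 0.52). The call of Smad6 was lost with TMM factors and without any 1 of the 4 libraries.

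Markers of other cell fates were few. No Hox gene was tested at day 9. Of mesoderm and endoderm genes Sp5 alone was tested at day 9, and it fell (-1.84 ± 0.64), a call lost with a pseudocount of 0.5, with edgeR, with the compared groups only and without DoxRA replicate 2 or control replicate 1. Neither of the 2 tested neural genes passed. Feeder and stroma markers summed to 906 and 1443 RPM in DoxRA libraries of day 9, against 647 and 893 RPM in controls, and 3 of 11 tested rose, Col1a2, Col5a2 and Col6a2. Of the 11, 2 reached the minimum only in DoxRA libraries, so these had to differ to be tested. With TMM factors 1 of the 11 rose, and the call of Col1a2 was lost without any 1 of the 4 libraries. Their part in the other differences was not tested.

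By rule of size, the largest rises of day 9 were Zfp541, Tex101, Taf7l, Ccnb3, Pet2, Adad1, Magea8, Tslrn1, Tktl1 and Mageb4. The rises of Pet2, Taf7l, Ccnb3, Magea8, Tslrn1, Tktl1 and Mageb4 are of genes on the X chromosome. The share of X-linked genes among all tested or all called genes was not counted. Magea8, of the melanoma antigen family, read 66.2 and 44.5 RPM in DoxRA libraries, against 0.431 and 0.549 RPM in controls (5.22 ± 0.52). Tktl1, a transketolase-like gene, read 117 and 71.2 RPM, against 1.72 and 1.65 RPM (5.10 ± 0.52). Magea and Mageb genes have close copies among which reads can be split, so single members are uncertain.

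The largest falls were Pfkl, Nnat, Ldha, Aire, Tpi1, Tdgf1, Gstm3, Fabp7, Miat and Fermt3. Nnat, an imprinted proteolipid gene, read 0 and 1.45 RPM in DoxRA libraries of day 9, against 53 and 43.9 RPM in controls. Gstm3, a glutathione transferase, read 2.38 and 4.84 RPM, against 71.5 and 58.8 RPM (-3.89 ± 0.46). Gstm3 in DoxRA libraries had read 88.0 and 81.8 RPM at day 4, so here the DoxRA level itself was lower at the later day.

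The response built up over the days. Day 4 gave 69 genes called higher and 25 lower (0.813% and 0.295% of 8487 tested), day 7 gave 399 and 186 (4.38% and 2.04% of 9114) and day 9 gave 1306 and 632. Day 5 gave 514 and 301 (5.96% and 3.49% of 8628), but 21 and 3 (0.243% and 0.0348%) without DoxRA replicate 1, and 1512 and 824 without DoxRA replicate 2. Leaving out any 1 library gave 12 to 47 calls at day 4, 194 to 285 at day 7 and 1314 to 1911 at day 9. With TMM factors the calls were 55 higher and 39 lower at day 4, 313 and 460 at day 5, 289 and 271 at day 7 and 760 and 947 at day 9, so lower calls outnumbered higher ones at days 5 and 9. They moved the median of all genes at day 9 to -0.04, against 0.21 without them, so list medians are read against the all-gene median.

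**Figure D3:**
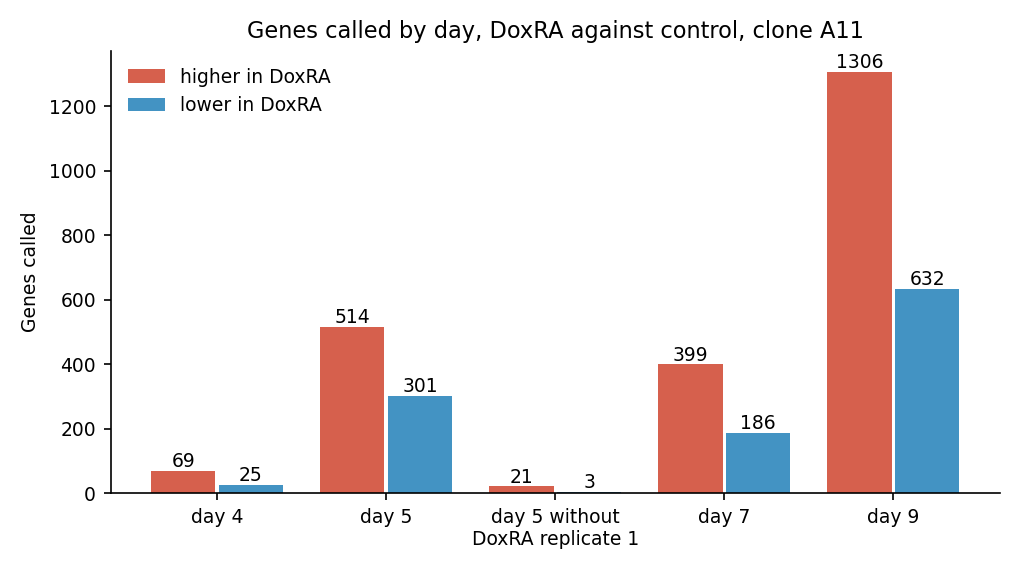
Genes called (y axis) by day in clone A11, red for higher and blue for lower in DoxRA libraries; numbers are the counts. Day 5 is drawn with and without DoxRA replicate 1, which takes the counts of 514 and 301 to 21 and 3.

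Early rises were few and led by Cyp26a1 and Stra8. At day 4 the genes named by size were Cyp26a1, Stra8, Bhlha15 and Acp5. Bhlha15, a secretory cell factor, read 26.8 and 22.2 RPM in DoxRA libraries of day 4, against 3.58 and 0.455 RPM (3.30 ± 0.58, adjusted p = 0.00029), and 1.91 and 5.81 RPM at day 9, against 0.431 and 2.20 RPM, where it was no longer tested. Acp5, an acid phosphatase, stayed called at all 4 days, at day 5 with DoxRA replicate 1 included. It read 33.2 and 28.7 RPM in DoxRA libraries of day 4, against 6.26 and 3.64 RPM (2.46 ± 0.54). At day 4 the calls of Bhlha15 (without control replicate 2) and Acp5 (without any 1 library but control replicate 1) were lost. Among early falls Rangrf, a Ran guanine nucleotide release factor, read 43.1 and 46.2 RPM, against 123 and 126 RPM (-1.46 ± 0.27). Rangrf fell at all 4 days, at day 5 with DoxRA replicate 1 included. Egfl7, a secreted vascular factor, fell by 1.78 ± 0.36 at day 4, a call lost without DoxRA replicate 1.

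At day 7 the largest rises were Cyp26a1, Meioc, Rgs10 and Stra8, and the largest falls Khdc1a, Pfkl, Zfp296 and Crip2. Rgs10, a regulator of G protein signals, read 86.8 and 99.9 RPM in DoxRA libraries of day 7, against 3.66 and 4.43 RPM (4.22 ± 0.60), and Zfp296, a zinc finger gene of pluripotent cells, 6.14 and 5.95 RPM, against 37.7 and 47.2 RPM (-2.62 ± 0.33). Day 5 named Cyp26a1, Stra8, Slc13a2 and Chi3l1 among rises and Mrpl34, Pin4, Polr2l and Tmsb4x among falls. Slc13a2, a dicarboxylate carrier, read 32.8 and 25.6 RPM in DoxRA libraries of day 5, against 4.5 and 0.411 RPM (3.43 ± 0.48). Without DoxRA replicate 1, Cyp26a1, Stra8, Slc13a2 and Mrpl34 of these 8 were still called, and Chi3l1, Pin4, Polr2l and Tmsb4x were not.

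By list, meiotic genes called higher were 1 of 21 tested at day 4, 7 of 22 at day 5, 16 of 30 at day 7 and 40 of 48 at day 9. Without DoxRA replicate 1, day 5 had 2 of 22, Stra8 and Rec8, and Ythdc2, Stag3, Hormad1, Sycp3 and Hfm1 were no longer called. Rec8 read 56.3 and 45.8 RPM in DoxRA libraries of day 4, against 19.2 and 16.4 RPM, and 239 and 122 RPM at day 5, against 24.4 and 29.6 RPM. Methylation-silenced genes had 8 of 16 called at day 7, and glycolysis 7 of 17 called lower. Of genes called at each earlier day, 35 of the 69 higher at day 4 (50.7% of these, 2.68% of the day 9 list), 174 of the 514 at day 5 (33.9% and 13.3%) and 261 of the 399 at day 7 (65.4% and 20.0%) were also called higher at day 9. Of the 1306 higher at day 9, 27 were called higher at all 4 days and 966 at no earlier day. Of the 632 lower, 4 were called at all 4 days (Chchd5, Rangrf, Morc1 and Cul7) and 466 at no earlier day. These counts include the day 5 DoxRA replicate 1, which stood apart, and were not taken without it.

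The change of response between day 9 and day 4 was tested itself. The difference was positive in 385 genes and negative in 214 (3.86% and 2.14% of 9983 tested); TMM factors gave 254 and 336. Meiotic lists had 26 of 48 tested members more positive at day 9 and none more negative, and glycolysis had 14 of 19 more negative. In the day 9 comparison, 22 of 48 meiotic members had reached the testing minimum only in DoxRA libraries. For glycolysis, 4 of 19 had reached it only in controls. Members that passed here only through 1 such group had to differ to be tested, and they were not counted for this contrast. Adad1 led, with a difference of 5.75 ± 0.71 between responses, followed by Tex101 (5.60 ± 0.82). Tex101 read 3.40 and 0.925 RPM in DoxRA libraries of day 4, against 1.79 and 0.91 RPM in controls, and Adad1 had no read in DoxRA libraries and 0.447 and 0.455 RPM in controls. Stra8 and Cyp26a1 showed no change of response that passed (0.54 ± 0.98 and 0.40 ± 0.88). On the other side stood Krt7, a keratin, at -4.93 ± 0.82. It read 35.5 and 22.6 RPM in DoxRA libraries of day 4, against 13.9 and 7.28 RPM, and 2.86 and 0.484 RPM at day 9, against 32.7 and 21.4 RPM.

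Clone A2, with Stra8 intact, gave the nearest comparison for the absence of Stra8, at day 9 only, since all but 1 of its DoxRA libraries of days 4, 5 and 7 carry another extraction protocol label than the A11 libraries. In A2, 25.6% of 9517 genes tested were called higher and 22.5% lower. The A11 response minus the A2 response was positive in 1537 genes and negative in 546 (14.8% and 5.26% of 10372 tested). A positive difference can mean a larger rise or a smaller fall in A11. As each genotype is 1 clone, clone and genotype cannot be told apart.

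**Figure D4:**
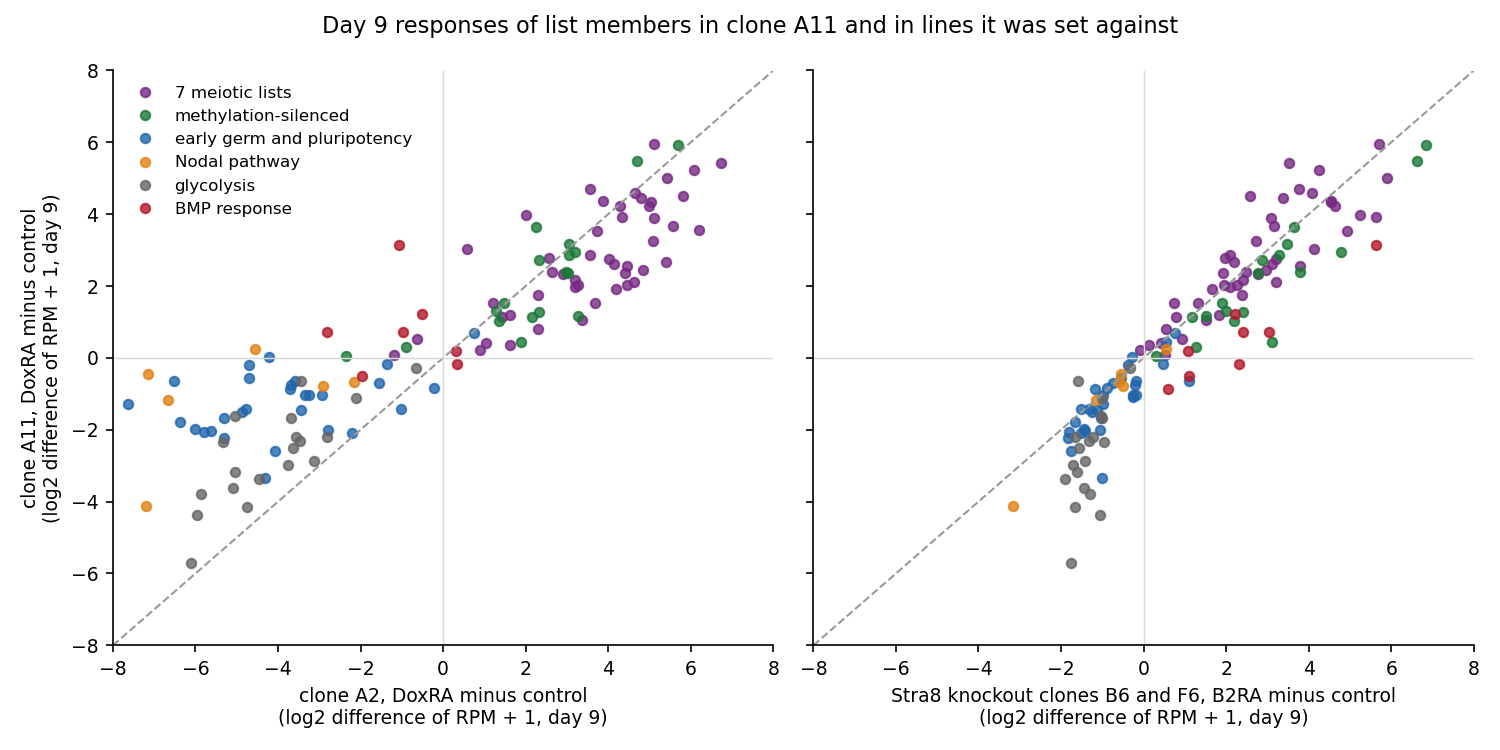
Log2 differences of RPM + 1 at day 9 for list members tested in both comparisons, clone A11 (y axis, DoxRA minus control) against clone A2 with DoxRA (left, x axis) and Stra8 knockout clones B6 and F6 with B2RA (right, x axis); the dashed line is equality and colours are lists. Early germ cell, pluripotency and Nodal genes lie mostly above the line in the left panel, glycolysis genes mostly below it in the right panel.

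Meiotic genes rose in both clones, 40 of 48 tested in A11 and 47 of 51 in A2, and part of them by less in A11. Of the 51 tested for the difference, 15 had a smaller response in A11, 3 a larger one and 33 did not pass, with a median difference of -0.78 against 0.17 over all genes. Members that reached the testing minimum only in DoxRA libraries of 1 clone had to differ to be tested. Such members were not counted, neither here nor for the 47 of 51 in A2. Fbxo47, an F-box protein of meiotic telomeres, read 59.5 and 47.0 RPM in A11 DoxRA libraries, against 7.75 and 9.88 RPM in A11 controls, and 459 and 471 RPM in A2 DoxRA libraries, against 10.3 and 21.9 RPM in A2 controls (-2.39 ± 0.70, adjusted p = 0.008). Dmc1 read 111 and 104 RPM in A11 with DoxRA, against 25.8 and 30.2 RPM in its controls, and 370 and 333 RPM in A2, against 14.46 and 23.0 RPM (-2.29 ± 0.64, adjusted p = 0.0051). Kctd19 had been near 0 in A11 but read 21.4 and 19.9 RPM in A2 with DoxRA, against 0 and 1.8 RPM (-3.53 ± 0.54). Kctd19 reached the minimum only in A2 DoxRA libraries, so it had to differ to be tested. Sycp3, Stag3, Spo11, Msh4 and Ythdc2 were also among the 15. Calls were lost for Fbxo47, Ythdc2, Spo11, Stag3 and Sycp3 without A2 control replicate 1, for Stag3 and Sycp3 without any 1 A11 library, and for Stag3, Spo11 and Sycp3 without A2 DoxRA replicate 2. That of Spo11 was also lost without A11 control replicate 2 or either A11 DoxRA library, that of Ythdc2 without A11 DoxRA replicate 2, and that of Kctd19 with edgeR. Dmc1 and Msh4 passed under every setting run.

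Rec8 differed the other way. In A11 it read 637 and 652 RPM with DoxRA, against 78.8 and 78.0 RPM, and in A2 117 and 204 RPM, against 122 and 88.4 RPM (2.45 ± 0.61, adjusted p = 0.0015). The A2 groups overlapped and the A11 groups did not. Mnd1 was the second larger response, through a fall in A2, and Rec114 the third. The responses of Sycp1, Meioc, Tex101, Taf7l and Zfp541 were not shown to differ (-0.70 ± 0.93, -0.20 ± 0.92, 0.24 ± 0.82, 0.78 ± 0.83 and 0.84 ± 0.74), with intervals wide enough to hold several-fold differences. In the methylation-silenced list 1 of 18 was larger and 1 smaller.

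Many early germ cell, pluripotency and Nodal genes were lower in A2 with DoxRA than in A11 relative to their controls. Early germ cell genes had a positive difference in 9 of 14 tested (median 2.16), pluripotency genes in 12 of 18 (median 3.16) and Nodal genes in 6 of 6 (median 3.93), with none negative. Of the 6, the calls of Nodal and Tdgf1 were lost under at least 1 setting run. Dppa3 read 430 and 502 RPM in A11 with DoxRA, against 1061 and 1205 RPM in its controls, but 4.62 and 2.39 RPM in A2, against 778 and 955 RPM (6.35 ± 0.52, adjusted p = 1.1e-17). As cells were sorted for the Dppa3 reporter, this gene was part of the selection in both clones. Lefty1 read 200 and 161 RPM in A11 with DoxRA, against 229 and 266 RPM, and 1.16 and 0.797 RPM in A2, against 422 and 181 RPM (6.69 ± 0.87, adjusted p = 4.6e-09). Pou5f1 read 59.0 and 55.2 RPM in A11, against 218 and 240 RPM, and 1.73 and 0.797 RPM in A2, against 140 and 144 RPM (4.03 ± 0.65). In each gene the A2 DoxRA libraries were near 0 and the A11 DoxRA libraries were not.

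The largest positive differences named by size were Lefty1, Dppa3, Hesx1, Pramef12, Car2 and Lefty2. Hesx1, a homeobox gene of pluripotent cells, read 61.9 and 53.7 RPM in A11 with DoxRA, against 102 and 80.2 RPM, and had no read in A2 with DoxRA, against 68.5 and 118 RPM (5.87 ± 0.87). The largest negative ones were Adamts6, Ap1m2, Rgs2, Cyp26b1, Ccdc96 and Phyhipl. Cyp26b1, a second enzyme that degrades retinoic acid, read 9.05 and 3.39 RPM in A11 with DoxRA, against 2.15 and 1.65 RPM, and 39.9 and 96.5 RPM in A2, against 0 and 1.08 RPM (-4.25 ± 0.88, adjusted p = 0.00011). Cyp26a1 was not shown to differ (-0.11 ± 0.88), and Rgs10, called in A11, read 13.6 and 22.3 RPM in A2 with DoxRA, against 25.1 and 11.5 RPM (difference 4.04 ± 0.85).

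Signalling genes differed as well. Id1 rose in A11, while in A2 it read 16.5 and 25.5 RPM with DoxRA, against 56.8 and 34.5 RPM (difference 4.22 ± 0.81, adjusted p = 3.4e-05), and Id3 had a difference of 3.55 ± 0.52. For glycolysis, 5 of 19 differences were positive and none negative, among them Slc2a3 at 3.00 ± 0.43 and Pfkp at 2.82 ± 0.50. Sohlh1 was called in A11 at 30.5 and 19.4 RPM and read 3.75 and 1.59 RPM in A2 with DoxRA (3.27 ± 0.58).

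Set against Stra8 knockout clones given B2RA, few responses of A11 differed. These clones lack the transgene, so their response is to B2RA alone. In them 15.7% of 10111 genes tested were called higher and 5.08% lower. The A11 response with DoxRA minus theirs was positive in 31 genes and negative in 82 (0.295% and 0.779% of 10520 tested). These 113 calls became 29 to 100 without 1 library and 418 without the filter on low values. Culture additives, transgene and clone all differ here and cannot be told apart, and the standard errors leave room for differences of several-fold.

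Of 48 tested meiotic genes 1 had a larger response in A11, none a smaller one and 47 did not pass, with a median difference of 0.03 against -0.07 over all genes. That gene was Shoc1, a crossover factor, at 19.5 and 23.2 RPM in A11 with DoxRA, against 0.431 and 0 RPM, and 3.14, 4.80, 5.13 and 5.15 RPM in the B2RA libraries, against 0, 0, 0.712 and 0.71 RPM (2.15 ± 0.56, adjusted p = 0.033). Its call was lost without any 1 A11 library and with TMM factors. Shoc1 reached the testing minimum only in A11 DoxRA libraries, so it had to differ to be tested. Sycp1 read 39.6, 27.5, 60.4 and 94.9 RPM in B2RA libraries, against 0.762, 1.19, 0.712 and 2.48 RPM in their controls, and its response did not differ from that of A11 by the test (-0.21 ± 0.80). Nobox had a larger response in A11 (2.95 ± 0.52), a call lost with edgeR and with the compared groups only, and Brdt a smaller one (-2.69 ± 0.53).

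The endogenous Zglp1 row read 14.8 and 11.1 RPM in A11 with DoxRA, against 5.17 and 6.04 RPM, and 79.7, 27.9, 56.4 and 36.8 RPM in the B2RA libraries, against 5.33, 8.75, 2.14 and 2.84 RPM in their controls (difference of responses -2.11 ± 0.61, adjusted p = 0.063). BMP response genes differed in 3 of 12 tested cases, each smaller in A11. Id3 read 204 and 290 RPM in A11 with DoxRA, against 138 and 155 RPM, and 702, 508, 791 and 849 RPM with B2RA, against 121, 50.5, 117 and 70.0 RPM (-2.31 ± 0.45, adjusted p = 0.00099). Gata2, a GATA factor, differed by -2.49 ± 0.64 and Msx1, a BMP-induced homeobox gene, by -2.85 ± 0.71. Msx1 read 0.476 and 0 RPM in A11 with DoxRA, and 24.3, 24.9, 6.96 and 6.25 RPM with B2RA. The calls of Gata2 and Msx1 were lost without any 1 A11 library. Id1 rose in both lines, by 3.15 ± 0.57 in A11 and 5.63 ± 0.40 with B2RA, and the difference did not pass (-2.48 ± 0.70, adjusted p = 0.054).

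Among glycolysis genes 3 of 19 tested had a more negative response in A11 (median difference -1.27). Pfkl read 0.952 and 0.968 RPM in A11 with DoxRA, against 91.3 and 114 RPM, and 39.6, 94.3, 16.1 and 51.1 RPM with B2RA, against 122, 211, 118 and 148 RPM (-3.95 ± 0.76, adjusted p = 0.00086). Tpi1 differed by -2.48 ± 0.62 and Slc2a3 by -1.36 ± 0.37, and both calls were lost without A11 DoxRA replicate 1. The largest negative differences were Phlda2, Krt8, Pfkl, Sct, Ptpn22 and Igfbp5. Phlda2, an imprinted growth regulator, read 6.19 and 6.29 RPM in A11 with DoxRA, against 61.6 and 43.4 RPM, but 202, 179, 174 and 109 RPM with B2RA, against 6.09, 11.5, 75.5 and 5.33 RPM (-6.36 ± 0.76, adjusted p = 2.8e-09).

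The largest positive differences were Csn3, Slc13a2, Reg2, Pgbd5, Magea8 and Magea5, of which the call of Magea8 was lost without any 1 A11 library but DoxRA replicate 2. Slc13a2 read 68.1 and 63.4 RPM in A11 with DoxRA, against 3.88 and 3.29 RPM, and 0, 0.437, 0 and 0 RPM with B2RA (3.84 ± 0.56, adjusted p = 1.5e-06). In A2 with DoxRA it read 17.9 and 68.5 RPM, against 5.51 and 5.39 RPM. Reg2, a secreted lectin gene, read 25.7 and 22.8 RPM in A11 with DoxRA and had no read in its controls, and 42.2 and 75.7 RPM in A2 with DoxRA. Both transgenic clones thus had reads of these genes with DoxRA, and the B2RA libraries held at most 4.05 RPM of either. Pgbd5, a transposase-derived gene, rose in A11 at all 4 days, at day 5 with DoxRA replicate 1 included. Its rise at day 9 was 3.53 ± 0.51, with 47.1 and 64.9 RPM against 3.88 and 3.84 RPM. In A2 with DoxRA it read 2.31 and 3.99 RPM.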

How the data were processed

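The deposited table held RPM values for 25706 endogenous genes and 3 transgene rows, from 3' RNA-seq of 1 ng RNA per the labels. The deposited table names the unit, and its values are whole multiples of what 1 read is worth in each library. The submitters' processing notes name cutadapt 1.9.1, TopHat2 2.1.0, Bowtie 1.1.2, SAMtools 1.3, HTSeq 0.9.1 and mm10, with no roles. Transgene rows were used as signal values, deposited by the authors beside the genes. Of 195 value columns 194 matched a labelled sample and 1 was not used; 2 labelled samples were not analysed here, and 3 misaligned lines were realigned.

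Differences were fitted with limma 3.58.1 in R 4.3.3 on log2(RPM + 1) over 191 PGCLC libraries in 98 groups, filtered at 10 RPM in at least 2 of the libraries compared, with Benjamini-Hochberg adjustment over all genes tested. A fold on this scale understates changes of low genes. RPM steps gave whole reads for 100% of low values (tolerance 0.05), and edgeR 4.0.16 on those reads was an alternative, with other pseudocounts (0.5 and 5), no filter, TMM factors, the compared groups only, a replicate block and single libraries left out. The fit was tested on simulated data. Floors are 3 reads over a group and cover counting error only.

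The members and the 28 gene lists (387 genes) were chosen with earlier results of these data known. Beside list members, the text names the called genes with the largest differences in each direction and a mean of at least 20 RPM. Predicted genes, unnamed clones and pseudogenes were passed over in these rankings. Positions and promoters are from RefSeq (GRCm38.p6), found for 431 of 432 listed or named genes. Listed under older symbols were Six6os1, Rec114 and Khdc3, among others. All A11 and all day 9 libraries share 1 extraction protocol label, which allows either of a pair of RNA kits. A few genes of the lists are not reported here by name.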

Additional observations from a re-analysis of the deposited data

Results flagged for a closer look

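The DoxRA response of clone A11 differed between day 9 and day 4 in 599 genes by the test of that difference. The largest positive differences of the log2 responses were Adad1 at 5.75, Tex101 at 5.60, Mageb4 at 5.54, Tslrn1 at 5.38, Zfp541 at 5.28 and Ccnb3 at 5.19. The largest negative ones were Krt7 at -4.93, Nnat at -4.44, Pfkl at -4.05, Aire at -4.02, Ldha at -4.00 and Aldoc, a glycolytic aldolase, at -3.82. The calls of Tslrn1, Zfp541, Ccnb3, Nnat, Aire and Ldha were each lost under at least 1 setting run. For Adad1, Tex101, Mageb4 and Pfkl the adjusted p stayed under 0.05 throughout.

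The day 9 response to DoxRA differed between clones A11 and A2 in 2083 genes by the test of that difference. A11 minus A2 was highest in Lefty1 at 6.69, Dppa3 at 6.35, Hesx1 at 5.87, Pramef12 at 5.55, Car2 at 5.51 and Lefty2 at 5.48. It was lowest in Adamts6 at -4.91, Ap1m2 at -4.40, Rgs2 at -4.26, Cyp26b1 at -4.25, Ccdc96 at -4.13 and Phyhipl at -3.76. Each genotype is 1 clone, and the cause was not tested.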

How the results depend on the processing

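Without the filter on low values, the calls numbered 910 at day 7 (585 with it), 3228 at day 9 (1938), 956 for day 9 minus day 4 (599) and 418 for A11 minus the Stra8 knockout clones (113). A11 minus the Stra8 knockout clones also gave 74 and 219 calls with pseudocounts of 0.5 and 5, 68 with TMM factors, 196 with the compared groups only and 68 with edgeR. The compared groups alone gave 1281 calls for A11 minus A2 (2083), and edgeR gave 62 at day 4 (94). Leaving out 1 library gave 12 to 47 calls at day 4, 24 to 2336 at day 5 (24 without DoxRA replicate 1, 2336 without DoxRA replicate 2), 194 to 285 at day 7, 299 to 547 for day 9 minus day 4, and 29 to 100 for A11 minus the Stra8 knockout clones. At day 9 (1314 to 1911) and for A11 minus A2 (1505 to 2190) the counts stayed within 1.5 times the reported ones.

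The replicate numbers were not taken as pairs, since same-numbered libraries deviated together at days 4, 7 and 9 but not at day 5, and the labels state no shared batch (correlations of 0.266, -0.038, 0.179 and 0.150 at days 4, 5, 7 and 9). With the replicate block the calls were 135, 880, 659 and 2001 at days 4, 5, 7 and 9, 745 for day 9 minus day 4, 2250 for A11 minus A2 and 145 for A11 minus the Stra8 knockout clones. Of 88 genes called at day 9 and followed through the settings, 69 passed under every setting and 19 were lost under at least 1, all 19 without some library. Figla, day 9 minus day 4, turned to -0.37 with edgeR (adjusted p = 0.77), against 2.84 as reported; the cause was not tested. Among 6474 values of single genes, 331 lost their call and 131 gained one. At 1 read per 0.218 to 0.549 RPM, levels under about 1 RPM rest on single reads.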
